A study of Mus musculus with 6 samples.

Results

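Expression of 40 listed genes of interferon and JAK-STAT signalling was read in mouse embryonic stem cells that had differentiated for 14 days and were then sorted by a green fluorescent protein reporter knocked into Nkx2-1. The genes were chosen by name, with earlier results of these data known. Rows of the array carrying exactly 1 of these symbols were taken, with the highest-mean row for each gene, which gave 38 of the 40 genes among 19938 genes in all. Isg15 and Jak3 lie on rows shared with another gene and were not used. The Nkx2-1 high group held 3 samples of GFP-positive cells (genotype Nkx2-1GFP+) and the Nkx2-1 low group 3 samples of GFP-negative cells (Nkx2-1GFP-), all of the W4/129S6 background and all made by directed differentiation towards lung and thyroid progenitors. The labels describe biological replicates but not whether the high and low samples came from the same cultures, so p-values measure the spread between these samples.

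In JAK-STAT signalling a cytokine brings together its receptor chains, the attached Janus kinases (JAK1, JAK2, JAK3 and TYK2) phosphorylate STAT proteins, and STAT dimers enter the nucleus and switch on target genes. Among those targets are Cish and some of the SOCS genes, whose products inhibit the same receptors and kinases and so close a feedback loop. Type I interferons act through a complex that holds STAT2 and IRF9, while leukaemia inhibitory factor (LIF) and other cytokines of the interleukin-6 family use the shared receptor chain gp130 (gene Il6st) and mainly STAT3. LIF acting through STAT3 helps to keep mouse embryonic stem cells undifferentiated in culture.

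The promoters of 5 members are shown first because they carry letter matches to motifs of these pathways, and because the members differ in how they behaved. STAT dimers bind the gamma-activated site, searched as TTCNNNGAA, and the complex with STAT2 and IRF9 binds the interferon-stimulated response element, searched as GAAANNGAAA, both on either strand. Sequences are from RefSeq (build GRCm38.p6), 5′ to 3′ on the strand of the gene, from 250 bases before to 50 bases after the annotated start. Capitals mark the matches. Socs3, Irf1 and Irf2 were higher in Nkx2-1 high, while Cish, another SOCS family gene, did not pass the test and Ifit1, a classical interferon-induced gene, was not above background.
Socs3 (chr11:117969317-117969616, minus strand): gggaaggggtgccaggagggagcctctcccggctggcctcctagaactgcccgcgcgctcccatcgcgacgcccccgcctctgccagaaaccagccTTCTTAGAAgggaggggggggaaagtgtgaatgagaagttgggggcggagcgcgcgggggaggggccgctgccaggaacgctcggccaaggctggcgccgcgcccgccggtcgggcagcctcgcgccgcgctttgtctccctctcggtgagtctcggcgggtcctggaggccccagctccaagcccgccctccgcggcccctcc
Irf1 (chr11:53769764-53770063, plus strand): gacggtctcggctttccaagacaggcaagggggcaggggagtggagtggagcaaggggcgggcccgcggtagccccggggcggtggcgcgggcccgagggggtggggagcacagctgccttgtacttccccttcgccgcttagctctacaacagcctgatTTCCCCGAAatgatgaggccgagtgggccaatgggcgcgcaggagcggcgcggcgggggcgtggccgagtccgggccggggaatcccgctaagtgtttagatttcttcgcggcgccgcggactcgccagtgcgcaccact
Irf2 (chr8:46739495-46739794, plus strand): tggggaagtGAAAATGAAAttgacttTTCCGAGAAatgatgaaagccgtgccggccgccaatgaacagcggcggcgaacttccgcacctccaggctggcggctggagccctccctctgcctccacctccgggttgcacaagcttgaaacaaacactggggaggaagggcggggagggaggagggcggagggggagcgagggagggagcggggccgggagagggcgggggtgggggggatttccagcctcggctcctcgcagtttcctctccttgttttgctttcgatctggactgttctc
Cish (chr9:107296409-107296708, plus strand): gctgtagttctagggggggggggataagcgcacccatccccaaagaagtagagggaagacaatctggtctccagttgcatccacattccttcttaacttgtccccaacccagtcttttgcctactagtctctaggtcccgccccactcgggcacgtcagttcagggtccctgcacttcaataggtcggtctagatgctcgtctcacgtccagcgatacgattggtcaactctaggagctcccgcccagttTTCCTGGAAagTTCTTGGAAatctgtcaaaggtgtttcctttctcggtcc
Ifit1 (chr19:34640639-34640938, plus strand): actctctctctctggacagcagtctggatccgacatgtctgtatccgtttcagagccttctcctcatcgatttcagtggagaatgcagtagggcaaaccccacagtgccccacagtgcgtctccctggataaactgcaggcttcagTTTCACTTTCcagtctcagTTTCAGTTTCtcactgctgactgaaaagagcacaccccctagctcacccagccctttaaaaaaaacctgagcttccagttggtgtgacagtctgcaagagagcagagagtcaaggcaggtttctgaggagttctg

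Promoters were found for 33 of the 38 members; Socs2, Socs5, Socs6, Socs7 and Usp18 had no entry. A gamma-activated site was matched in 10 of the 33 genes (30.3%), against 9.55% of the 27018 genes with a promoter, and a response element in 7 (21.2%), against 3.99%. Bst2 and Irf2 had both, with the 2 motifs overlapping in Bst2, so 15 genes had at least 1 match. Of the 6 members that rose and had a promoter, Socs3 (154 bases before the start), Irf1 (90 bases before, in 1 of its 2 listed promoters) and Irf2 (224 bases before) held a gamma-activated site, and Stat3, Lifr and Osmr held neither motif. Of the 27 that did not pass, 7 held a gamma-activated site and 6 a response element. A match is a description of letters, not of binding, and with 1 mismatch allowed the letters occur in 84.8% (gamma-activated site) and 45.5% (response element) of the member genes, against 74.2% and 38.9% of all genes.

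**Figure D1:**
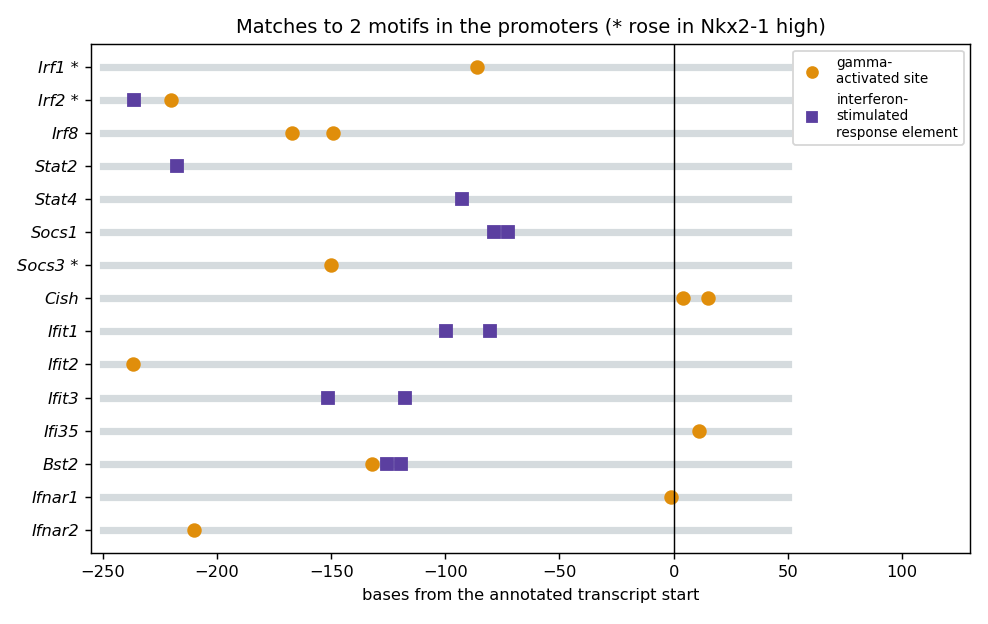
Positions of exact matches to the gamma-activated site (circles) and the interferon-stimulated response element (squares) in the promoters of the 15 members with at least 1 match; the x axis is the distance in bases from the annotated transcript start and the grey bars span the window searched. Of the members marked with an asterisk, which rose in Nkx2-1 high, Irf1, Irf2 and Socs3 held a gamma-activated site, and both matches in Cish lie just after the start.

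Nkx2-1, the gene behind the sort, was read at 7.62, 7.77 and 7.77 in the high samples and at 5.42, 5.23 and 5.34 in the low samples (log2 expression; exact two-sided permutation p = 0.1, the smallest that 3 samples against 3 allow). A log2 level of 4.30, the 95th percentile of the values of olfactory and vomeronasal receptor rows, served as the background level; where neither group mean exceeded it, a gene is called not above background and given no fold. Of 9 pluripotency markers, 7 were not above background, Pou5f1 and Nanog among them, and the other two, Tfcp2l1 (0.13 ± 0.07) and Klf2 (0.12 ± 0.08), did not pass. Of 8 markers of definitive endoderm, 1 rose and 0 fell (mean log2 level over the list 5.42 to 5.51 in high and 5.27 to 5.37 in low samples). It was Hhex (1.98-fold, limma adjusted p = 0.00538), which passed in all 6 fits without 1 sample, while Sox17 and Foxa3 were not above background. Mesenchyme markers fell in 8 of 11 cases (mean log2 level over the list 7.28 to 7.68 in high and 8.43 to 8.73 in low samples), the 6 largest being Postn (5.06-fold), Pdgfra (3.99-fold), Prrx1 (3.74-fold), Col1a2 (2.82-fold), Col3a1 (2.16-fold) and Twist1 (1.93-fold). Neuron markers fell in 6 of 10 (4.73 to 5.03 against 5.61 to 5.67), namely Ina (2.99-fold), Dcx (at least 2.24-fold), Gap43 (1.85-fold), Tubb3 (1.79-fold), Stmn2 (at least 1.75-fold) and Elavl4 (at least 1.31-fold; 4 of the 6 fits that left out a sample did not call it). Of 10 endothelial markers 2 rose and 0 fell (4.70 to 4.88 against 4.47 to 4.58), Tek at least 1.73-fold and Eng 1.84-fold (Eng was lost in 4 of the 6 fits without 1 sample), while Cdh5 and Erg were not above background. Of 10 epithelial markers 1 fell, Epcam (1.76-fold; list mean 4.50 to 4.72 against 4.64 to 4.93). The part of these cell types in the results below was not tested. In such bulk samples a smaller number of cells of a type and less RNA per cell cannot be told apart.

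Of the 38 members, 7 rose in Nkx2-1 high and 0 fell, while 12 were higher and 3 lower when the limma p was left unadjusted (threshold 0.05), as were 8.57% and 10.4% of all genes. The genes that rose were the inhibitor genes Socs2 and Socs3, the receptor genes Lifr and Osmr, the STAT gene Stat3 and the IRF genes Irf1 and Irf2. The test called 6.0% of all genes, 2.9% higher and 3.09% lower, and 18.4% of the members. Of all genes 32.8% were not above background (the level defined above), beside 8 of the 38 members. In a fit of the 13404 genes above background alone, 1510 were called in either direction. Of the 30 members among these genes, that fit called 8 higher and 0 lower. "Rose" and "fell" mean higher or lower in Nkx2-1 high with a limma adjusted p of at most 0.05. The median log2 difference was 0.10 over the members and -0.0082 over all genes, and 29 of the 38 differences were above 0. The high and low samples did not overlap for 13 members that were higher and 4 that were lower, where 11.2% and 13.5% of all genes behaved so (24.7% in either direction). Without 1 sample the number that rose was 4 (without Nkx2-1 high replicate 1), 3 (high replicate 2), 7 (high replicate 3), 6 (low replicate 1), 4 (low replicate 2) and 4 (low replicate 3), and Socs2, Socs3 and Lifr passed in all 6 of these fits.

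**Figure D2:**
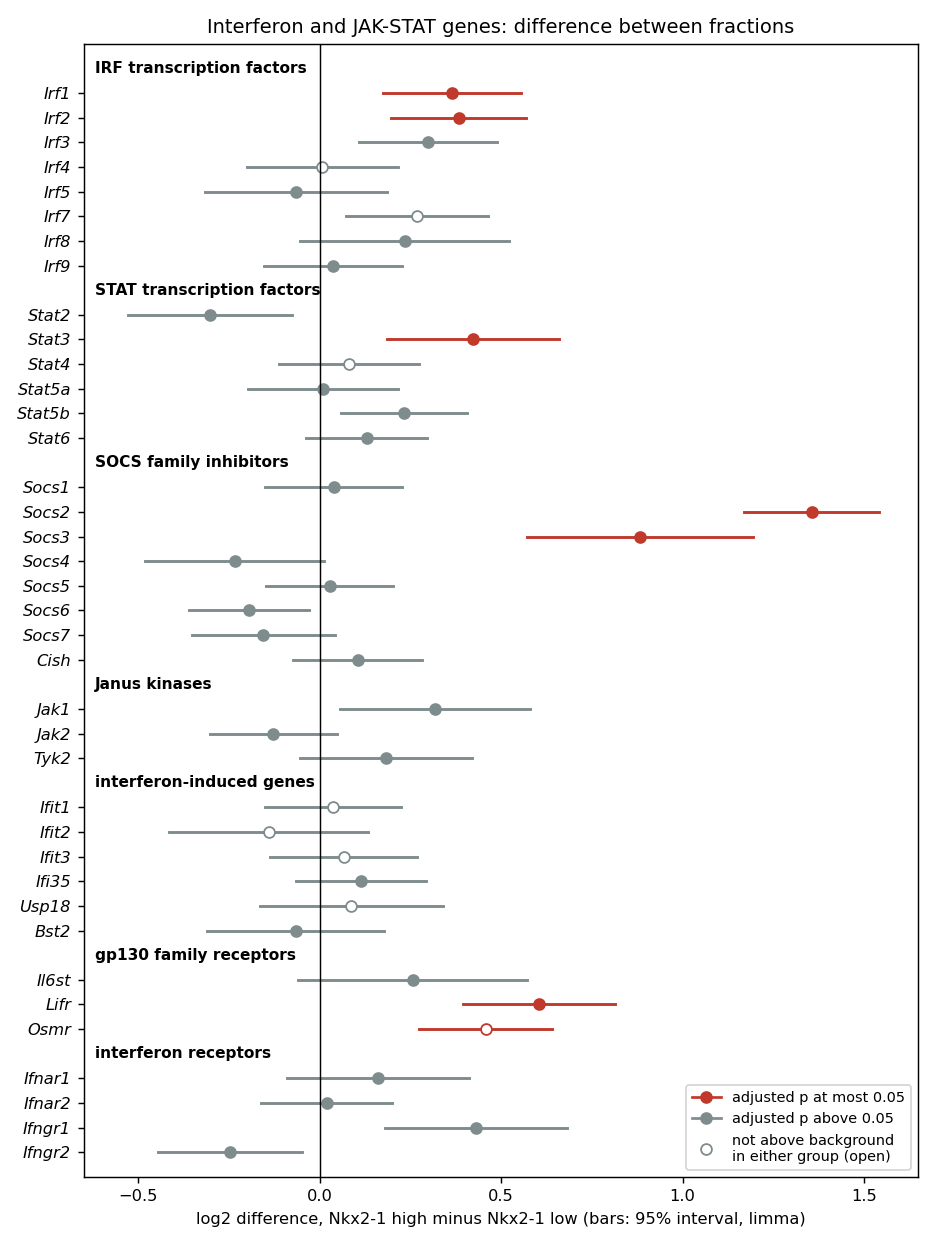
Log2 difference (Nkx2-1 high minus Nkx2-1 low, 3 samples each) of the 38 members by role, with 95% intervals from limma; red marks an adjusted p of at most 0.05 and open points genes not above background in either group. Socs2 (1.36) and Socs3 (0.88) lie furthest to the right, and the interferon-induced genes lie around 0.

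Among the receptors of the interleukin-6 family, Lifr and Osmr were higher in Nkx2-1 high and the shared chain Il6st did not pass. Lifr, the LIF receptor chain, was read at 7.34, 7.31 and 7.08 in the high samples and at 6.66, 6.54 and 6.70 in the low samples. Every high sample lay above every low sample, and the difference was 0.60 ± 0.09 on the log2 scale (SE, 1.52-fold, limma adjusted p = 0.00506). Osmr, the oncostatin M receptor chain, was read at 3.80, 3.88 and 3.67 against 3.32, 3.37 and 3.29. Its difference of 0.46 ± 0.08 passed the test (limma adjusted p = 0.0105), but all 6 values lay under the background level, so no fold is given, and it was lost without Nkx2-1 high replicate 2 (adjusted p = 0.0569). Il6st, the gp130 chain with which both pair, was read at 9.11, 8.97 and 8.53 against 8.75, 8.57 and 8.52. Nkx2-1 high replicate 3 lay among the low samples. With all 6 samples the difference was 0.26 ± 0.14 (limma adjusted p = 0.377, 95% interval -0.06 to 0.57), and without that replicate it was 0.43 (adjusted p = 0.0464), while without high replicate 1 it was 0.137.

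Other genes of this cytokine family were also read. Of 12 measured ligands and further receptor subunits, 2 rose and 0 fell (median difference -0.09). Cntfr, the binding chain for ciliary neurotrophic factor, which signals through gp130 and the LIF receptor, was read at 7.96, 8.06 and 8.29 in high and at 7.32, 7.55 and 7.68 in low samples. The high samples were again all above the low ones, by 0.58 ± 0.12 (1.5-fold, limma adjusted p = 0.0175, lost without Nkx2-1 high replicate 2, low replicate 1 or low replicate 2, with an adjusted p up to 0.0598). Il27, a subunit of the cytokine interleukin-27, rose by 0.38 ± 0.08 (1.30-fold, limma adjusted p = 0.0181, kept only without Nkx2-1 high replicate 3 or low replicate 2 among the fits without 1 sample). In this list 6 genes were above background and 6 were not, the ligand genes Lif, Osm, Il6 and Il11 among the latter. The ligand genes Clcf1 (5.998 in high and 6.26 in low samples, limma adjusted p = 0.109) and Ctf1 (4.68 and 4.89, adjusted p = 0.296) were above background and did not pass, with every high sample under every low sample. These ligand genes are named after their values were seen.

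Interferon receptor genes were all above background, and none of the 4 passed the test in either direction (limma; 1 was higher and 1 lower with an unadjusted p under 0.05). The chains of the interferon-gamma receptor leaned opposite ways. Ifngr1, the ligand-binding chain, was read at 7.29, 7.23 and 7.11 in high and at 7.02, 6.72 and 6.59 in low samples. The groups did not overlap, yet the difference of 0.43 ± 0.11 missed the threshold (limma adjusted p = 0.0556, 95% interval 0.18 to 0.68). Ifngr2, the accessory chain, was read at 8.24, 8.08 and 8.04 against 8.45, 8.39 and 8.26, a difference of -0.25 ± 0.09 (limma adjusted p = 0.158). Its high samples all lay under its low samples. Of the chains for type I interferon, Ifnar1 was read at 8.39, 8.15 and 8.06 against 8.21, 8.0 and 7.91 with overlapping groups (0.16 ± 0.11, limma adjusted p = 0.505; 0.0652 without Nkx2-1 high replicate 1, 0.0967 without low replicate 3 and 0.2479 without low replicate 1). Ifnar2 differed by 0.02 ± 0.08 (95% interval -0.16 to 0.20).

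Of 10 measured interferon ligands and chains of the interferon-lambda receptor, 1 rose and 0 fell. It was Il10rb, a chain shared by the receptors for interleukin-10, interleukin-22 and the lambda interferons, read at 6.99, 6.87 and 6.64 in high and at 6.25, 5.99 and 6.03 in low samples. The gap between the groups was wider than the spread within either, with a difference of 0.74 ± 0.11 (1.67-fold, limma adjusted p = 0.00410, passing in all 6 fits without 1 sample). Its partner chain Ifnlr1, named after its value was seen, differed by 0.05 ± 0.07. Of the 8 ligand genes measured, 5 (Ifnb1, Ifna4, Ifng, Ifne and Ifnk) were not above background. The other 3 were above it and did not pass: Ifna5 was read at 7.51 in high and 7.47 in low samples, Ifnl2 at 6.57 and 6.54, and Ifna2 at 4.53 and 4.41.

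The Janus kinase genes showed 0 of 3 changes by limma, with 1 higher at an unadjusted p under 0.05. Jak1, the kinase used by gp130 and by all interferon receptors, was read at 8.87, 8.71 and 8.46 in high and at 8.45, 8.44 and 8.19 in low samples. The lowest high sample and the highest low sample nearly met, and the difference of 0.32 ± 0.12 did not pass (limma adjusted p = 0.169). Tyk2, the kinase bound to Ifnar1, was read at 5.10, 5.09 and 4.77 against 4.89, 4.81 and 4.70 with overlapping groups (0.18 ± 0.11, limma adjusted p = 0.403; 0.2924 without Nkx2-1 high replicate 3). Jak2, the kinase of growth hormone and erythropoietin receptors, differed by -0.13 ± 0.08 (adjusted p = 0.438).

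Of 6 STAT genes, 1 rose and 0 fell (with the limma p unadjusted, 2 were higher and 1 lower at 0.05). Stat3, the main factor downstream of gp130, was read at 8.56, 8.31 and 8.14 in high and at 7.96, 7.92 and 7.88 in low samples. The low samples were close together and the high samples spread above them, and the difference was 0.42 ± 0.11 (1.34-fold, limma adjusted p = 0.0482). The call was marginal: it was kept only without Nkx2-1 high replicate 3 among the fits without 1 sample (adjusted p from 0.0184 to 0.132) and was lost with median-centred arrays (0.0617). Stat2, the interferon-specific STAT, was read at 6.12, 6.39 and 6.29 against 6.43, 6.56 and 6.71. Its high samples all lay under its low ones, and the difference of -0.30 ± 0.10 did not pass (limma adjusted p = 0.130, 95% interval -0.53 to -0.08). Stat5b, one of the STAT5 pair activated by growth hormone and prolactin, was read at 6.93, 6.93 and 6.95 against 6.74, 6.77 and 6.60 without overlap (0.23 ± 0.08, limma adjusted p = 0.129). Stat5a, its near-identical partner, differed by 0.01 ± 0.09, and Stat6, the factor of interleukin-4 and interleukin-13, by 0.13 ± 0.07. Stat4, the factor of interleukin-12, was not above background.

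The SOCS family held the largest differences of the members. Of its 8 genes 2 rose and 0 fell, and all 8 were above background. Socs2, an inhibitor of growth hormone signalling that STAT5 induces, was read at 7.57, 7.47 and 7.39 in high and at 6.15, 6.04 and 6.18 in low samples. The groups were far apart compared with their spread, at 7.48 ± 0.09 and 6.12 ± 0.08 (SD, n = 3), a difference of 1.36 ± 0.08 (SE, 2.56-fold, limma adjusted p = 2.85e-05). It ranked 31st among all 19938 genes by size of the rise. The array has another row annotated with the same RefSeq records for Socs2, read at 7.05 in high and 6.0 in low samples, and what distinguishes these rows is not given in the sources used here. Without 1 sample the adjusted p stayed between 9.17e-05 and 0.000430.

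Socs3, the feedback inhibitor that binds gp130 and is itself switched on by STAT3, was read at 7.56, 6.94 and 7.12 in high and at 6.28, 6.37 and 6.32 in low samples. All high samples were above all low samples, with Nkx2-1 high replicate 1 standing above the other two. The difference was 0.88 ± 0.14 (1.84-fold, limma adjusted p = 0.00552) and ranked 126th by size of the rise. Without that replicate the difference was 0.71 and the adjusted p stayed at most 0.0290 in every fit without 1 sample. A dimmer row for Socs3, annotated with a single transcript record, showed no such rise (5.13 in high and 5.17 in low samples), and with the mean over both rows the difference was 0.42 (limma adjusted p = 0.0193).

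The other SOCS genes did not pass. Socs4, linked to the epidermal growth factor receptor, was read at 6.07, 5.87 and 5.65 against 6.17, 6.01 and 6.12, a difference of -0.23 ± 0.11 with overlapping groups (limma adjusted p = 0.291; -0.128 without Nkx2-1 high replicate 3 and -0.1158 without both samples numbered 3). Socs6 was read at 7.16, 7.17 and 7.18 against 7.43, 7.35 and 7.31, a difference of -0.20 ± 0.07 (limma adjusted p = 0.180). Its groups did not overlap. Its other rows gave differences of -0.58, from a row with the same annotated records, and 0.24, at levels under the background level. Socs1, the inhibitor of interferon signalling, differed by 0.04 ± 0.08 (95% interval -0.15 to 0.23) and Cish, a STAT5 target, by 0.11 ± 0.08 (-0.07 to 0.28). Socs5 and Socs7 differed by 0.03 ± 0.08 and -0.15 ± 0.09 (Socs7 by -0.0877 without Nkx2-1 high replicate 2).

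**Figure D3:**
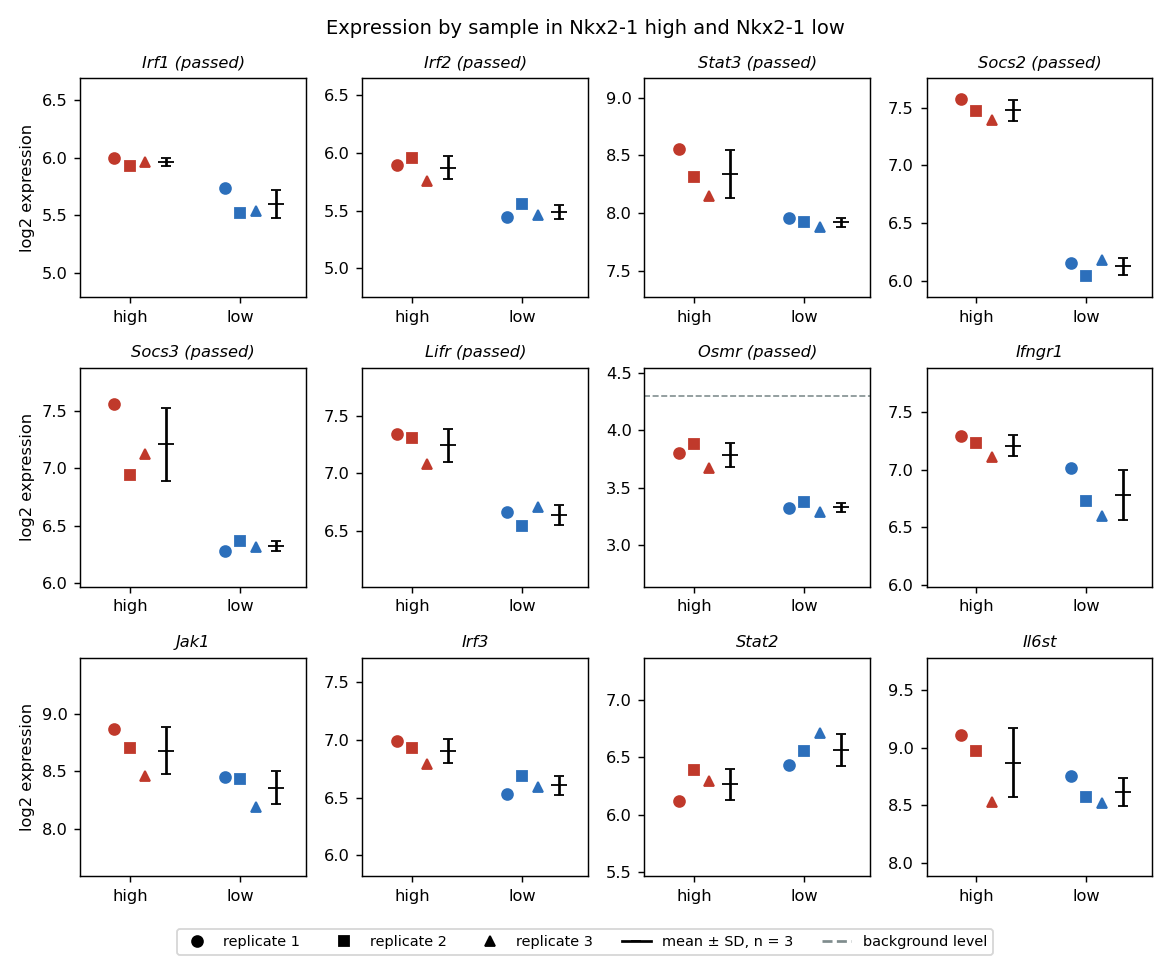
Log2 expression by sample of the 7 members that rose and of the 5 members above background with the next largest differences; points are samples (red high, blue low, shape by replicate number), black bars mean ± SD with n = 3, and each panel spans the same height on the log2 scale. Socs2 shows the widest gap between groups, Osmr lies under the dashed background level, and in Il6st Nkx2-1 high replicate 3 lies among the low samples.

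Of 8 IRF genes, 2 rose and 0 fell, with 4 higher at an unadjusted limma p under 0.05. Irf1, an activator that interferon-gamma induces within hours, was read at 6.0, 5.93 and 5.96 in high and at 5.74, 5.52 and 5.54 in low samples. The high samples lay close together above the low ones, with a difference of 0.36 ± 0.08 (1.29-fold, limma adjusted p = 0.0346). The call was kept only without Nkx2-1 low replicate 1 among the fits without 1 sample (adjusted p from 0.0257 to 0.130; 0.154 without both samples numbered 3). A dimmer row for Irf1, annotated with a single transcript record, was read at 5.24 and 5.16, and with the mean over both rows the difference was 0.22 (adjusted p = 0.145).

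Irf2, which binds the same sites as IRF1 and counters it, was read at 5.90, 5.96 and 5.76 in high and at 5.44, 5.56 and 5.46 in low samples. The groups were separate, with a difference of 0.38 ± 0.08 (1.30-fold, limma adjusted p = 0.0254), and the call was kept only without Nkx2-1 high replicate 3 among the fits without 1 sample (0.0210 to 0.114; 0.0510 without both samples numbered 3). Irf3, the factor that nucleic acid sensors activate, was read at 6.99, 6.93 and 6.79 against 6.53, 6.69 and 6.59. Its groups were also separate, and the difference of 0.30 ± 0.09 did not pass (limma adjusted p = 0.0781). Irf9, the DNA-binding partner of STAT2, differed by 0.04 ± 0.08 (95% interval -0.15 to 0.23).

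The remaining IRF genes, some known mainly from blood cells, did not pass. Irf8, a myeloid factor, was read at 5.66, 5.60 and 5.34 against 5.52, 5.31 and 5.06 with overlapping groups (0.23 ± 0.13, limma adjusted p = 0.376; 0.1138 without Nkx2-1 low replicate 3). Irf5 differed by -0.06 ± 0.11, and Irf4, a lymphoid factor, was not above background. Irf7, the amplifier of type I interferon, was not above background either, and its difference of 0.27 ± 0.09 did not pass (adjusted p = 0.118). Of 13 measured blood and immune markers 0 rose and 0 fell by limma, with 1 higher at an unadjusted p under 0.05. Their mean log2 level ran from 3.82 to 3.90 in high and 3.81 to 3.85 in low samples, and 9 of them, Ptprc and Spi1 included, were not above background. The largest differences among those above it were 0.28 ± 0.13 for Cd68 and -0.15 ± 0.10 for Coro1a.

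**Figure D4:**
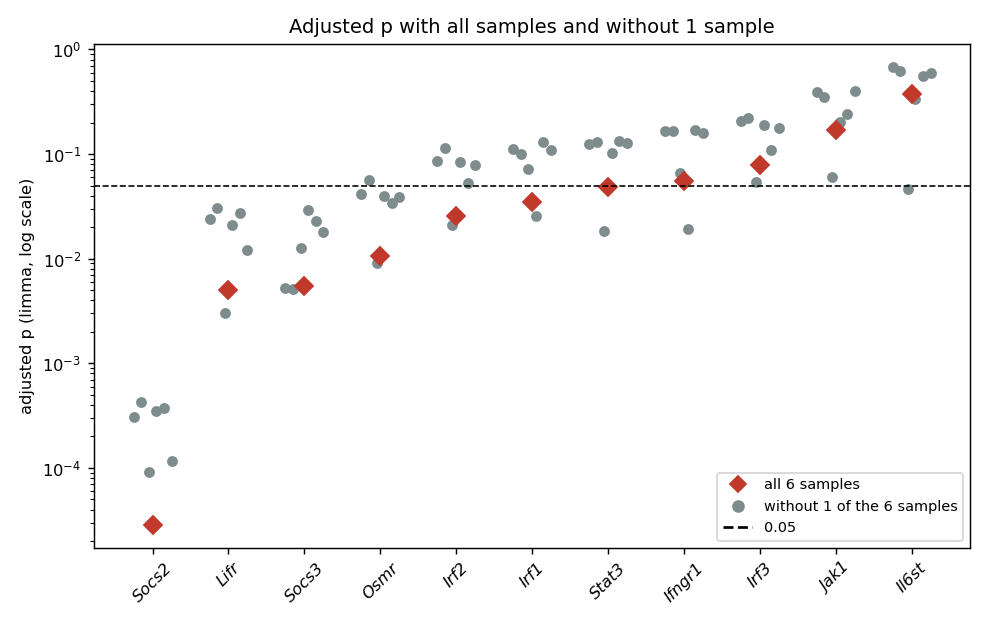
Adjusted p (limma, log scale) of the 7 members that rose and of Ifngr1, Irf3, Jak1 and Il6st, with all 6 samples (diamonds) and without each sample in turn (circles); the dashed line is 0.05. All points of Socs2, Lifr and Socs3 lie under the line, while Irf1, Irf2 and Stat3 each have 1 circle under it.

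Interferon-induced genes, the usual readout of an interferon response, did not change as members. Of 6 measured, 0 rose and 0 fell by limma, also at an unadjusted p under 0.05. Ifit1, Ifit2 and Ifit3, whose products bind viral RNA, and Usp18, which removes ISG15 from proteins, were not above background in either group, with values from 2.40 to 4.16 over the 6 samples. Ifi35 was read at 4.90 ± 0.03 in high and 4.79 ± 0.10 in low samples (SD, n = 3), a difference of 0.11 ± 0.08 with a 95% interval of -0.06 to 0.29. Bst2, the tetherin gene, was read at 5.79 ± 0.17 and 5.85 ± 0.14 (SD, n = 3), a difference of -0.07 ± 0.11 with an interval of -0.31 to 0.18.

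A wider list of interferon-induced genes held 1 change. Of 52 listed genes 49 were measured, of which 0 rose and 1 fell (limma; with the p unadjusted, 6 were higher and 1 lower at 0.05), with a median difference of 0.03. The gene that fell was Lgals3bp, a secreted galectin-binding glycoprotein, read at 5.98, 5.77 and 5.77 in high and at 6.35, 6.25 and 6.35 in low samples. Its groups did not overlap, and it was 1.40-fold lower in Nkx2-1 high (-0.48 ± 0.09, limma adjusted p = 0.0104, 0.0563 without Nkx2-1 high replicate 2). In this list 21 genes were not above background, among them Mx1, Mx2, Oas2 and Cxcl10, which are named after their values were seen.

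Genes listed under nucleic acid sensing and under the control of JAK-STAT signalling moved singly. Of 14 measured genes on the sensing list, 2 rose and 0 fell. The list is mixed: it also holds Tlr4 and the IRF2-binding protein family genes Irf2bp1, Irf2bp2 and Irf2bpl, which are not nucleic acid sensors. Those that rose were Irf2bpl (0.40 ± 0.10, 1.32-fold, limma adjusted p = 0.0402) and Mavs, the adaptor of cytosolic RNA sensors (0.30 ± 0.08, 1.23-fold, adjusted p = 0.0481). Both calls were lost in all 6 fits without 1 sample. Of 18 genes of PIAS proteins, phosphatases and adaptors 1 rose and 0 fell (3 higher and 2 lower without adjustment of the limma p), the SUMO ligase gene Pias4 (0.36 ± 0.08, 1.28-fold, limma adjusted p = 0.0260, kept only without Nkx2-1 high replicate 2 among the fits without 1 sample).

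Of 21 measured genes listed as other receptors of JAK-STAT signalling, 1 rose and 1 fell. The list includes Csf1r, a receptor that is itself a kinase. Il4ra, the interleukin-4 receptor chain, was read at 6.84, 6.79 and 6.95 in high and at 6.22, 6.25 and 6.16 in low samples. The groups were well separated, with a difference of 0.65 ± 0.08 (1.57-fold, limma adjusted p = 0.00126, passing in all 6 fits without 1 sample). Il13ra1, which pairs with it, did not pass and leaned the other way (-0.61 ± 0.19, adjusted p = 0.110; named after its value was seen). Lepr, the leptin receptor gene, exceeded the background level in the low samples alone as a group mean and was lower in high by at least 1.15-fold (log2 difference -0.76 ± 0.18, limma adjusted p = 0.0343, kept only without Nkx2-1 low replicate 2 among the fits without 1 sample).

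Of 18 genes that STAT3 is known to induce, and that other signals induce as well, 3 rose and 0 fell (median difference 0.08), and 8 were higher and 1 lower where the limma p under 0.05 was not adjusted. Klf4, a zinc-finger factor gene that LIF and STAT3 sustain in embryonic stem cells, was read at 5.75, 5.56 and 5.72 in high and at 5.01, 5.13 and 4.96 in low samples. It rose by 0.65 ± 0.09 (1.56-fold, limma adjusted p = 0.00237) and passed in all 6 fits without 1 sample. Bcl6, a transcriptional repressor gene, rose by 0.64 ± 0.13 (1.56-fold, limma adjusted p = 0.0208, kept only without Nkx2-1 high replicate 3 or low replicate 2), and Junb, an early response gene, by 0.45 ± 0.09 (1.37-fold, adjusted p = 0.0165, lost without Nkx2-1 high replicate 1, high replicate 2 or low replicate 1). Over the 7 pathway lists together, 10 of 142 genes rose (7.04%) and 2 fell, beside 2.9% and 3.09% of all genes. Without 1 sample the number that rose was 4 (without Nkx2-1 high replicate 1), 4 (high replicate 2), 8 (high replicate 3), 3 (low replicate 1), 6 (low replicate 2) and 5 (low replicate 3).

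**Figure D5:**
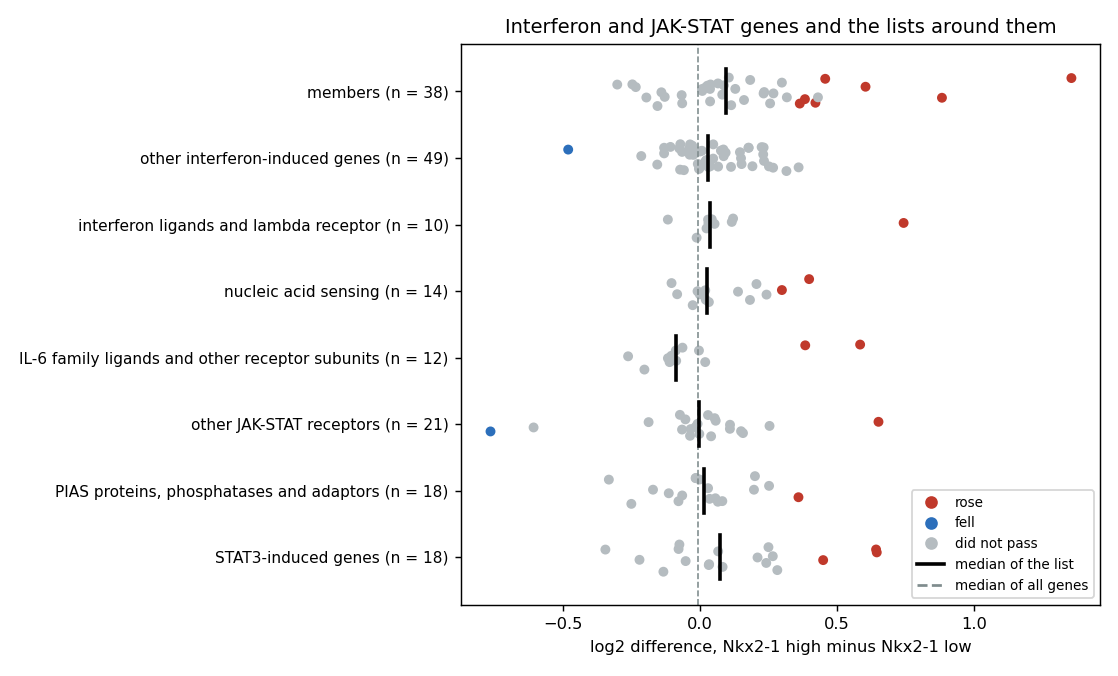
Log2 differences (Nkx2-1 high minus Nkx2-1 low) of the 38 members and of the genes of 7 pathway lists, 1 point a gene, spread vertically at random; red points rose, blue points fell, black bars are list medians and the dashed line the median of all genes. The list medians lie between -0.09 and 0.10, and the points far from the line are single genes such as Socs2, Il10rb, Il4ra and Lepr.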

How the data were processed

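RNA from the sorted cells was amplified by the WT-Ovation Pico method before hybridisation to arrays, per the labels' protocols; amplification can alter relative signal. The deposited values were read as log2 expression, from their range (array medians 4.98 to 5.06) and from RMA, which the submitters' processing notes name; its version is not given in the sources used here. Of 29011 rows, 21789 had 1 gene symbol, 1621 several and 5601 none. The first were used, with the highest-mean row per gene. Groups were tested by lmFit and eBayes of limma 3.58.1 (R 4.3.3), with group the only term and Benjamini-Hochberg adjustment over 19938 genes, tested on simulated data. The number of arrays limits the precision; replicates differed by 0.0968 to 0.133 (median absolute log2 difference), and numbers were not taken as pairs. Alternatives are in the closing section. The members and lists were chosen with earlier results of these data known. Per-sample values are given for called members and for the 12 others above background with the largest differences; of each list, up to 6 called genes are named, and others where said.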

Additional observations from a re-analysis of the deposited data

How the results depend on the processing

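The test was repeated with arrays centred on the median or scaled by cyclic loess, with genes above background alone, with robust eBayes and a trend, with weights for arrays, with the replicate number as a block, with rows of a gene averaged, at a threshold of 0.01, and without single samples or both samples numbered 3. The members that rose numbered 6 to 9 in the alternatives that kept all samples and the threshold, 5 without both samples numbered 3, and 0 fell in any. Ifngr1 passed in 5 of these (cyclic loess, genes above background, trend, weights and block) and Irf3 in the first 4. Without 1 sample they numbered 3 to 7, all genes called 624 to 1086, and pathway genes 3 to 8 higher and 0 to 3 lower; the cause was not tested, but fewer samples are fitted. At a threshold of 0.01 the counts were 507 genes, 3 members higher, and 3 pathway genes higher and 0 lower. Without both samples numbered 3, 6 pathway genes rose. With 1 mismatch the motif shares of member genes were 84.8% and 45.5%. Deviations of same-numbered samples correlated across genes at 0.27, 0.02 and 0.41, and those of differently numbered samples at -0.37 to 0.22. Whether samples of the same number shared a culture is not in the labels and was not tested. The main fit did not take the numbers as pairs. With the replicate block 9 members (Jak1 and Ifngr1 in addition) and 10 pathway genes rose and 2 pathway genes fell. That fit called 1470 genes, beside 1196 in the main fit. Differences near 0 changed sign. Without both samples numbered 3 they were 0.0716 for Irf5, -0.0048 for Stat5a, -0.0488 for Ifit3 and -0.0639 for Usp18, and with array weights -0.0339 for Stat5a. Without 1 sample they ran from -0.0738 to 0.0798 for Irf4, -0.18 to 0.0493 for Irf5, -0.0331 to 0.0898 for Irf9, -0.0666 to 0.0469 for Stat5a, -0.0325 to 0.0759 for Socs1, -0.0182 to 0.0547 for Socs5, -0.26 to 0.0017 for Ifit2, -0.014 to 0.11 for Ifit3, -0.0193 to 0.17 for Usp18, -0.16 to 0.0086 for Bst2 and -0.031 to 0.0715 for Ifnar2. The 8 members not above background have no usable fold.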

Other observations

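Among the 30 members above background, Nkx2-1 high replicate 3 was the lowest of its group for 18 (60.0%), where it was the lowest for 40.6% of the 13404 genes above background. In the low group, replicate 3 was the lowest for 13 of the 30 (43.3%), beside 34.3% of those genes. Lifr, Stat3, Jak1, Il6st, Ifngr1 and Irf3 were among the members lowest in Nkx2-1 high replicate 3.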
